A study of Mus musculus with 37 samples.

Results

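The transcripts described here carry the GENCODE transcript type retained_intron, the name given to a non-coding transcript that keeps intron sequence of its gene. They were chosen by their measured counts: a transcript of this type was taken as a member when at least 6 of the 12 oocytes of batch A held 10 or more expected counts of it. Of the 21206 transcripts of the type in the table, 1664 (7.85%) passed, out of 138835 mouse transcripts of every type. The members belong to 1432 host genes, of which 1233 hold 1 member and 199 hold more. The most members in 1 host was 4, in Brca2, Drap1, Hirip3, Mkln1 and Plpp5. Since batch A counts chose the members, their counts there are given as a description.

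Single mouse oocytes were profiled by Smart-seq2, a full-length cDNA method that starts from poly(A) RNA, to follow transcript changes through meiotic maturation. All 37 oocytes came from C57BL/6 females of 6 to 8 weeks that had been injected with 5 IU PMSG. Batch A holds 6 germinal vesicle oocytes (GV_A) and 6 metaphase II oocytes (MII_A), and batch B holds 10 germinal vesicle oocytes (GV_B) and 15 metaphase I oocytes (MI_B). The questions were how members differ between GV and MII within batch A and between GV and MI within batch B.

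GV oocytes of both batches were collected from ovaries 48 h after PMSG. MI_B oocytes were collected in the same way and then cultured for 8 h in M16 medium, so they matured outside the animal. MII_A oocytes were ovulated in the animal after a further injection of 5 IU hCG, and were collected 15 h after it. The zona pellucida and the polar body were removed before lysis, so each library is 1 oocyte without its polar body. The labels name no animal for any oocyte, and p-values here measure only the spread between oocytes.

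As background, an intron can stay in a polyadenylated RNA when the spliceosome leaves it in, and such RNA is often held in the nucleus or broken down by nonsense-mediated decay. A full-grown GV oocyte stores its mRNA and stops transcription, and its nuclear envelope breaks down when meiosis resumes. From then until the embryonic genome is switched on, changes in a transcript come from processing, decay and changes of the poly(A) tail.

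Total transcript counts per oocyte ran from 7.51e+06 to 1.26e+07 in GV_A, 9.93e+06 to 1.40e+07 in MII_A, 7.18e+06 to 1.77e+07 in GV_B and 2.71e+06 to 1.94e+07 in MI_B. The shallowest library was MI_B oocyte 15, where 441 members held 10 or more counts against a median of 1167 in MI_B. Oocyte 1 of MII_A differed from its group: 29518 genes had at least 1 count there, and 19273 to 22244 genes in the remaining MII_A oocytes. In MI_B oocytes 4, 8 and 9 the gene counts of HTSeq were 1.07 to 1.13 times those of RSEM at the median, against 1.99 to 2.12 times in the other MI_B oocytes. GV_A oocyte 1 had the lowest depth of its group, and members took the largest share of host counts there (16.8%). No pair of libraries within a group was alike enough to be the same library, since the smallest chi-square per degree of freedom between libraries of a group was 11.0.

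All 10 oocyte markers were detected in every oocyte, and their summed level had a median of 12512 CPM (counts scaled to the total of each oocyte) in GV_A, 6625 in MII_A, 3943 in GV_B and 3441 in MI_B. Gdf9, a growth factor of the oocyte, was the most abundant at a mean of 2147.79 CPM. Of 12 cumulus and granulosa markers, 7 had a median of 0 over the 37 oocytes, the most abundant was Cyp19a1 at a mean of 15.3 CPM, and the summed level had medians of 29.3 in GV_A, 21.6 in MII_A, 21.6 in GV_B and 19.0 in MI_B. Of 8 blood and immune markers, 5 had a median of 0, the most abundant was Hbb-bs at a mean of 1.39, and the medians of the sum were 0.795 in GV_A, 1.29 in MII_A, 5.53 in GV_B and 3.34 in MI_B. MII_A oocyte 1 reached 15.4 CPM for the blood list. The part of these markers in the results on members was not tested.

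Nearly every member held intron sequence, but only a minority held a whole intron. An intron of a coding transcript lay whole inside an exon of 500 members (30.05%), with 1 such intron in 323 and more than 1 in 177. Another 1113 members held only part of an intron: 564 began inside one and ended in an exon, 411 ended inside one, 121 did both and 17 did neither. A further 14 members held no intron base of a coding transcript, and 37 had a host with no coding transcript. Among all 21206 transcripts of the type, 29.3% held a whole intron, so the members are close to their type in this respect. The members are therefore called transcripts of the retained_intron type below, and an intron is called retained only where it is held whole.

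The members were longer than the 19542 other transcripts of the type, with a median of 1886 bases (296 to 19300) against 846. They held less sequence of their own. A median of 27.4% of a member's bases lay outside every coding transcript of the host, against 43.1% in the others, and 336 members had under 10%. For 139 members fewer than 50 bases were their own, and the counts of these rest on how RSEM divided reads shared with the coding transcripts.

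The members held 804 distinct whole introns. Their median length was 316.5 bases (53 to 15387), against 279 bases for the 7504 introns held only by other transcripts of the type, and their median GC content was 50% against 51.4%. They were the last intron of the coding transcript in 14.4% of cases, against 8.84% in the others. Most (91.8%) lay between coding exons, and 36.6% had a length that is a multiple of 3 (32.8% in the others). These differences are descriptions and were not tested.

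At their ends the introns of members had the usual bases. GT at the start and AG at the end were found in 97.9% of them, and in 98.2% of all 8308 whole introns of the type. The first bases GTAAG stood in 21.4% (20.98% of all), and GTGAG in 25.7% (29.4% of all). Introns that start with ATATCC or GTATCC followed by T, as donors of the minor spliceosome do, were found in 6 members. They made up 0.746% of the members' introns, near the 0.590% of all. Only the donor was matched, and no other part of the intron was looked at. The members were Dll3-202, Drap1-206, Ift80-204, Polr2e-205, Rpl4-203 and Ttc23-207. These 6 were chosen after their sequences were seen, and their donors are shown because this spliceosome recognizes few introns. Each line gives the last 3 exon bases and the first 6 intron bases, from GENCODE M21 transcripts of GRCm38, with the first bases of the intron in capitals.
Dll3-202 intron 8 of 8: gagGTatcc
Drap1-206 intron 2 of 6: tctGTatcc
Ift80-204 intron 1 of 18: agcATatcc
Polr2e-205 intron 4 of 6: ataGTatcc
Rpl4-203 intron 3 of 9: aatGTatcc
Ttc23-207 intron 4 of 11: aaaGTatcc
The intron of Ift80-204, a gene of ciliary transport, ends in AC, and the other introns of this set end in AG. Minor introns are known to be removed more slowly than others.

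Small RNA genes lay inside 34 of the members' introns (4.23%), against 38 introns (0.506%) of the other transcripts. They belonged to 24 members. Hspa8-208, of the heat shock chaperone HSC70, held 3 introns with the box C/D RNAs Snord14c, Snord14d and Snord14e. Rack1-206, of a scaffold protein of the ribosome, held introns with Snord96a and Snord95. Such small nucleolar RNAs guide the modification of ribosomal RNA and are cut from introns after splicing. The share of reads that came from the small RNA itself was not measured here.

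Next to the threshold, the values of members and others were alike. The measure was the count of a transcript in the oocyte with its sixth highest count among the 12. Just inside lay K230010J24Rik-203 at 10.00, Ccpg1os-202 at 10.01 and Fbxw8-202 at 10.02. Just outside lay Cnot10-208 and Bscl2-202 at 9.99 and Ss18l2-203 at 9.97. With a threshold of 20 counts, 1113 transcripts would have passed.

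Most members passed through both stages. In batch A, 751 members had 10 or more counts in all 12 oocytes, and 1471 had them in at least 3 of 6 oocytes of each stage. Fewer than 3 MII_A oocytes reached 10 counts for 108 members, and fewer than 3 GV_A oocytes for 85. These 193 members passed mainly through 1 stage, so a difference between stages follows in part from how they were chosen. At the extreme, 2 members had 10 counts in no MII_A oocyte and 4 in no GV_A oocyte. In batch B, which took no part in the choice, 1174 members had 10 or more counts in at least 13 of 25 oocytes and 3 were at 0 in all.

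The share of a host's counts held by a member varied widely. The median over the 12 batch A oocytes had a median of 11.1% across members, with quartiles of 3.63% and 30.8%. It was over 50% for 242 members and under 5% for 516. By position in the gene, the median share was 10.1% for members with a whole intron, 12.1% for those that begin in an intron, 8.43% for those that end in one, and 81.2% for the 37 without a coding transcript in the host. The same measure in batch B had a median of 9.86%, and across the 1664 members the batches' medians had a Spearman correlation of 0.745, a description across transcripts that share hosts and annotation. In 256 hosts the members together took over 50% of the counts.

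Summed over members, the share of host counts per oocyte was 13.7% at the lowest, 14.2% at the median and 16.8% at the highest in GV_A, and 12.8%, 13.7% and 15.0% in MII_A. In GV_B it was 14.5%, 15.8% and 17.5%, and in MI_B 14.5%, 16.3% and 19.2%. The stages overlapped in both batches, and the oocytes that stand apart, number 1 of GV_A and number 1 of MII_A, were the highest of their groups. For members with a whole intron the medians were 9.35% in GV_A (9.05% to 12.2%), 10.2% in MII_A (9.22% to 11.1%), 12.4% in GV_B (11.0% to 14.5%) and 14.1% in MI_B (11.0% to 17.6%). For those with part of an intron they were 14.5% (14.0% to 16.6%), 13.3% (12.6% to 14.7%), 14.9% (14.3% to 18.01%) and 15.3% (14.0% to 18.7%). In batch A the medians of these kinds of member thus differed in opposite directions, with overlap of the stages in each. Members made up 1.71% to 2.02% of all transcript counts in GV_A and 1.45% to 1.70% in MII_A, so that every MII_A oocyte lay below every GV_A oocyte, by a narrow margin. Coding transcripts took a median of 80.7% of the host counts in GV_A, 81.5% in MII_A, 77.1% in GV_B and 75.9% in MI_B.

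Counts were concentrated in few members: 10 of the 1664 held 20.8% of all member counts. Ncl-202, of nucleolin, the main protein of the nucleolus, held 5.50% alone. It lies at chr1:86350495-86359364 (GRCm38, minus strand) and keeps introns 9 and 10 of 13. Its share of Ncl counts was 73.4%, 75.2% and 79.6% at the lowest, median and highest in GV_A, and 74.8%, 76.1% and 78.8% in MII_A. The stages overlapped, and in GV_B (82.1% to 85.9%) and MI_B (83.7% to 92.9%) every oocyte was higher than in batch A. The sites of the introns it keeps are shown because this member holds the most counts; the capitals mark the first and last bases of the intron, and each end is a line of its own.
Ncl intron 9 donor: gtgGTaagt
Ncl intron 9 acceptor: tgttatctttgtatttgcAGgtg
Ncl intron 10 donor: aggGTaaaa
Ncl intron 10 acceptor: aactgactttcaaccttcAGgta

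Per length, the most abundant member was Uchl1-202, of a ubiquitin hydrolase plentiful in oocytes, with a mean of 261 CPM per kb in batch A. Its level was 322 to 526 in GV_A (median 411) and 84.0 to 136 in MII_A (median 97.4), so the stages did not overlap. It begins in an intron with only 52 bases of its own. The level was lower at MII by edgeR (log2 −1.77, SE 0.16, adjusted p 6.12e-05) and that of the host gene was too (−1.62). The share was not called: it was 16.1% to 36.6% in GV_A and 18.1% to 26.0% in MII_A.

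Tle6-214, of a protein of the subcortical maternal complex, followed with 228 CPM per kb and only 10 bases of its own. Its share was 25.3% to 33.9% in GV_A and 24.2% to 31.7% in MII_A, with overlap. Naa30-204, of the catalytic subunit of an N-terminal acetyltransferase, had a level of 167 and a share of 54.1% to 71.2% in GV_A and 53.1% to 65.8% in MII_A. Enox1-207, of a cell surface oxidase, had a level of 149, and its share of 76.5% to 86.6% in GV_A and 69.2% to 84.5% in MII_A also overlapped. None of these 3 nor Ncl-202 was called by share in either batch.

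Some members took the whole count of their host. Among hosts with a median of 100 or more counts, those with a median share of 100% in batch A include the hosts of Dct-204, Arhgef15-202, Gm21982-201 and Trpm2-207. Dct-204, of an enzyme of melanin synthesis, is a single exon that lies within an intron (chr14:118024077-118027535, GRCm38, minus strand), and the coding transcripts of Dct had 0 counts in all 37 oocytes. Its own counts were 891, 1460.6 and 2394 at the lowest, median and highest in GV_A and 2785, 2872 and 3186 in MII_A. Every MII_A oocyte was above every GV_A oocyte, and the level was higher at MII by edgeR (log2 1.05, SE 0.22, adjusted p 0.0101), but not when scaled by spike-ins (log2 0.41). On HTSeq counts the gene had a log2 change of −0.44 and was not called.

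Trpm2-207, of a calcium-permeable channel, begins in an intron and keeps intron 30 of 33. It had 796 to 2118 counts in GV_A and 2254 to 3181 in MII_A, with no overlap. Its level change at MII of log2 0.94 (SE 0.23, edgeR adjusted p 0.02) was under the fold of 2 asked for a call. Scaled by spike-ins it was log2 0.32. Arhgef15-202, of a guanine nucleotide exchange factor, had medians of 122 counts in GV_A and 85.4 in MII_A. Gm21982-201 had 120 and 87.0. The counts of both overlapped between stages. Neither level was called by edgeR (log2 −0.41 and −0.35). Scaled by spike-ins, that of Arhgef15-202 was called lower (log2 −1.09, edgeR adjusted p 0.00999) and that of Gm21982-201 was not (log2 −0.99). Gm21982 has no coding transcript, and in the other hosts named here the coding transcripts had at most 5 counts in any batch A oocyte.

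In batch A, the share of host counts was tested with edgeR, as the log2 change of a transcript relative to its host, for the 1474 members whose transcript and host passed the filter on low counts, not for all members. At MII 20 members were higher (1.36%) and 11 lower (0.746%), with an adjusted p under 0.05 and a change over 2-fold. Over all 15586 transcripts tested, 0.552% were higher and 0.385% lower. At an unadjusted p under 0.05 there were 127 members (8.62%, against 5.38% of all). Of the 20 and 11, 6 and 5 passed the choice mainly through 1 stage. Without such members, 14 of 1327 were higher and 6 lower. Over the 12 fits that leave out 1 oocyte, 12 of the 20 and 6 of the 11 were called in every one, and without MII_A oocyte 1 it was 17 and 9.

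The stages did not overlap in share for 56 of the tested members in the higher direction and 25 in the lower, against 2.05% and 1.83% of all transcripts tested. Among the members called, this held for 17 of 20 and 6 of 11. By limma, on the log ratio of the member to the coding transcripts of the host, 43 of 1561 members were higher and 21 lower, and 1.54% and 1.52% of all 3951 transcripts tested. The coding transcripts had 0 counts throughout batch A for 12 of the members tested, where the ratio only follows the level; of these, Dct-204 was called. Of the members called by edgeR, 18 of 20 and 8 of 11 were also called by limma in the same direction. A whole intron was held by 9 of the 20 and 2 of the 11, and by 436 of the 1474 members tested by edgeR. The difference was not tested.

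The host gene itself was mostly not called. Of the 20 hosts with a higher member, 3 were lower at MII at the gene level by edgeR and 0 were higher, beside 6.32% and 2.15% of all genes. Of the 11 hosts with a lower member, 1 was lower and 0 were higher; these lists are too short to read against the genes at large. The level of the member was called in the same direction for 14 of the 20 and 9 of the 11.

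Akr1b3-206, of aldose reductase, which turns glucose into sorbitol, had the smallest adjusted p among the higher members. Its share was 0.0906%, 0.226% and 0.678% at the lowest, median and highest in GV_A, and 6.76%, 7.23% and 9.68% in MII_A. All 6 MII_A oocytes were above all 6 GV_A oocytes, by a factor of 29.8 in the fit (log2 4.90, SE 0.61, edgeR adjusted p 3.21e-06). The host gene was lower at MII (log2 −1.49, SE 0.21, edgeR adjusted p 0.000146), so member and gene moved in opposite directions. The member is 1 exon of 5024 bases (chr6:34302434-34307457, GRCm38, minus strand) that begins in an intron and keeps the last one, intron 9, of 2200 bases at chr6:34304340-34306539.

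Rnf4-212 belongs to a ubiquitin ligase that acts on proteins marked with SUMO. It is 1 exon that starts in an intron, and only 115 of its 4514 bases are intron bases. The share was 0.244%, 0.387% and 1.12% in GV_A and 3.58%, 5.41% and 7.93% in MII_A. Again no oocytes overlapped (log2 3.45, SE 0.41, edgeR adjusted p 5.03e-06), while the host gene did not pass the test (log2 0.31).

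Hsp90b1-202, of the chaperone GRP94 of the endoplasmic reticulum, keeps intron 16 of 17 (chr10:86691749-86692139, minus strand). Its share was 0.189%, 2.02% and 3.35% in GV_A and 11.5%, 13.5% and 16.6% in MII_A. It was thus higher in every MII_A oocyte (log2 2.84, SE 0.37, edgeR adjusted p 4.47e-05), with a host gene at log2 −0.00051. In batch B its share had medians of 1.19% in GV_B and 1.34% in MI_B, near that of GV_A. The highest was 3.05% in GV_B and 10.1% in MI_B, the latter above every GV_A oocyte and below every MII_A oocyte.

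Zar1-202 comes from a maternal-effect gene whose protein binds mRNA in the oocyte. It is a single exon over the 3′ part of the gene that keeps introns 2 and 3 of 3. The share was 0.428%, 1.00% and 1.42% in GV_A and 3.25%, 4.23% and 5.75% in MII_A, without overlap (log2 2.40, SE 0.40, edgeR adjusted p 0.00039). In batch B the share was 1.25% to 5.80% in GV_B (median 2.12%) and 1.48% to 6.78% in MI_B (median 3.28%). Both ranges overlapped that of MII_A. Zar1 was among the abundant hosts, with a median of 6932 counts in batch A, and at the gene level it did not pass the test (log2 0.28).

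Cdt1-205, of the factor that loads the replicative helicase onto DNA, keeps intron 4 of 9, a short intron of 92 bases at chr8:122570102-122570193 on the plus strand. Its share was 2.84%, 8.26% and 13.6% in GV_A and 29.5%, 36.2% and 52.5% in MII_A. Each MII_A oocyte was above each GV_A oocyte (log2 2.33, SE 0.36, edgeR adjusted p 0.000525). In batch B the medians were higher still, 72.5% in GV_B (32.9% to 100%) and 77.4% in MI_B (19.1% to 100%). Both ranges overlapped that of MII_A, while the GV oocytes of the batches did not overlap.

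Atp6v1e1-203 belongs to a subunit of the vacuolar proton pump and begins in an intron. Its share was 0.958%, 2.58% and 5.83% in GV_A and 15.8%, 24.4% and 30.5% in MII_A, again without overlap (log2 3.16, SE 0.47, edgeR adjusted p 0.000539). The counts of the coding transcripts had medians of 1083 in GV_A and 209.5 in MII_A, and the host gene was lower at MII (log2 −1.86, SE 0.20, edgeR adjusted p 1.46e-05). The member's own counts, 10.7 to 64.9 in GV_A and 41.6 to 101 in MII_A, overlapped, and its level was called higher with TMM scaling (log2 1.29, edgeR adjusted p 0.0466) and not by spike-ins (log2 0.58).

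The donor and acceptor of each whole intron kept by these higher members are shown because an intron's own sites are the sequence the spliceosome reads. Each donor gives 3 exon and 6 intron bases, each acceptor 20 intron and 3 exon bases, and the capitals mark the first and last bases of the intron.
Akr1b3 intron 9 donor: gagGTgagt
Akr1b3 intron 9 acceptor: cacatgtgctcttctgacAGctg
Hsp90b1 intron 16 donor: cagGTttgt
Hsp90b1 intron 16 acceptor: gttgtggatgtcacctttAGgtg
Zar1 intron 2 donor: aagGTaaga
Zar1 intron 2 acceptor: gatgctctttctcctcgcAGgtg
Zar1 intron 3 donor: caaGTaaac
Zar1 intron 3 acceptor: ttttcactccgatttttcAGagt
Cdt1 intron 4 donor: caaGTgagt
Cdt1 intron 4 acceptor: ttctgccctctctcccatAGgcg
Across all members called higher there were 15 whole introns, each with GT and AG at its ends. Of them 6 (40%) begin with GTGAG, against 29.4% of all whole introns of the type, and 5 (33.3%) are the last intron of the coding transcript, against 9.38%; neither share was tested.

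Among the members lower at MII, Ints9-202 had the smallest adjusted p, but 10 counts were reached in 6 GV_A and only 2 MII_A oocytes, so that its choice already favoured a fall. INTS9 is a subunit of Integrator, the complex that cuts the ends of small nuclear RNAs. The member has 8 exons and ends in an intron (chr14:64950302-65010800, plus strand). Its share was 11.1%, 23.9% and 32.8% in GV_A and 0.597%, 0.921% and 3.75% in MII_A. All MII_A oocytes were below all GV_A oocytes (log2 −4.02, SE 0.38, edgeR adjusted p 2.06e-07), and the host gene was lower too (log2 −1.15, SE 0.12, edgeR adjusted p 1.05e-05), though on HTSeq counts it was not called (log2 −0.82).

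E330034G19Rik-201 also ends in an intron, with 186 bases of its own in 652. The share was small, 1.44%, 1.69% and 2.34% in GV_A and 0.14%, 0.249% and 0.382% in MII_A, of a host with a median of 13547 counts. The stages did not overlap (log2 −2.81, SE 0.39, edgeR adjusted p 3.21e-06), and the host gene did not pass the test (log2 0.32).

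Igf2bp2-207 comes from an mRNA-binding protein that oocytes store. Only 8 of its 3267 bases lie outside the coding transcripts, at its start, so its counts depend almost wholly on how shared reads were divided. The share was 33.9%, 59.6% and 69.5% in GV_A and 4.96%, 14.1% and 23.5% in MII_A (log2 −1.98, SE 0.29, edgeR adjusted p 4.47e-05). No oocytes overlapped, and the counts of the coding transcripts moved the other way, from a median of 1128 in GV_A to 2390 in MII_A.

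Dock5-203, of an exchange factor for the GTPase Rac, begins in an intron. Its share was 2.93%, 18.3% and 24.2% in GV_A, while 5 of the 6 MII_A oocytes had 0 counts and 1 had 12.07 counts, a share of 1.67%. With 0 counts, a share of up to 0.202% to 0.393% per oocyte is allowed by counting error alone. The fitted change (log2 −6.37, SE 0.91, edgeR adjusted p 0.000193) rests on these 0 values. Dock5-203 passed the choice through GV_A, with 10 counts in 6 GV_A and 1 MII_A oocyte, so a fall was in part fixed by the choice.

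Dnmt1-204, of the methyltransferase that copies DNA methylation to new strands, keeps the last intron of its gene, intron 38, at chr9:20907562-20907870 on the minus strand. Its share was 5.38%, 11.6% and 14.0% in GV_A and 0.732%, 2.71% and 4.54% in MII_A. The MII_A oocytes were all lower (log2 −1.91, SE 0.37, edgeR adjusted p 0.00133). The host gene had log2 −0.89 (edgeR adjusted p 0.00102), under the fold asked for a call. In batch B the share of Dnmt1-204 was 0.201% to 9.40% in GV_B (median 1.66%) and 0.279% to 8.10% in MI_B (median 0.804%). The GV_B median was thus below that of MII_A.

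Dennd4a-208 belongs to an activator of Rab GTPases and ends in an intron after keeping intron 18 of 33, 89 bases at chr9:64889127-64889215 on the plus strand. Its share was 8.30%, 12.1% and 19.4% in GV_A and 0%, 0.603% and 3.25% in MII_A, where 2 oocytes had 0 counts and allow up to 0.412% and 0.473%. Every MII_A oocyte was lower (log2 −3.60, SE 0.69, edgeR adjusted p 0.00276), but this member too passed the choice through GV_A, with 10 counts in only 1 MII_A oocyte. In batch B the share of Dennd4a-208 was 0% to 3.81% in GV_B (median 2.07%) and 0% to 7.57% in MI_B (median 2.73%). Both ranges lay below every GV_A oocyte. The introns of these lower members end as follows, with the same capitals as above.
Dnmt1 intron 38 donor: cagGTacgt
Dnmt1 intron 38 acceptor: gacttttcctttctcctcAGctg
Dennd4a intron 18 donor: gagGTaata
Dennd4a intron 18 acceptor: cctctcaacttgtgttgcAGgtg

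The other 14 higher and 5 lower members called by share were Emg1-206, Cntn2-202, Lmna-205, Pdlim7-209, Med4-203, Ciapin1-210, Bnip1-204, Psmb6-202, Bcar3-210, Fbxw19-202, Srpk1-206, Brca2-211, Eef1g-205 and Mvb12a-204, and Prdx2-205, Lbr-203, Manf-205, Dnajc11-203 and Rgs3-207. Over all called members the log2 change ran from 1.22 to 6.25 in the higher and from −6.37 to −1.13 in the lower direction. The largest rise belonged to Cntn2-202, of a neural adhesion protein, which was under 10 counts in every GV_A oocyte and so passed the choice through MII_A alone. Mvb12a-204 also passed through MII_A alone, and Manf-205 through GV_A alone. Lmna-205, Srpk1-206, Brca2-211 and Eef1g-205 passed mainly through MII_A, and Rgs3-207 mainly through GV_A. For each of these members the choice already favoured the direction of its change. No host had a member called in each direction. Brca2-211, of a DNA repair gene, had 10 counts in 2 GV_A and 4 MII_A oocytes. Its call was lost in 6 of the 12 fits that leave out 1 oocyte. The log2 change there was 0.838 without MII_A oocyte 1 and 2.34 to 2.79 in the other 5. Calls were lost in more of the fits for Mvb12a-204, Eef1g-205, Dnajc11-203, Rgs3-207, Srpk1-206 and Bcar3-210, without a change of direction. The members singled out in this paragraph were chosen after their values were seen. Of the 12 members described above, 9 did not pass the choice mainly through 1 stage. Those 9 kept an adjusted p under 0.05 by edgeR whichever oocyte was left out, the highest being 0.00783 for Atp6v1e1-203. They were named for a small adjusted p in the same test and for stages without overlap. Their kept calls follow in part from that and are a description.

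The level of the members, scaled by TMM, which takes most transcripts as unchanged, was tested with edgeR for 1598 of the 1664. At MII 48 members were higher (3.00%) and 57 lower (3.57%), against 1.35% and 4.23% of all 22461 transcripts tested. Of these, 6 and 12 passed the choice mainly through 1 stage; without such members, 42 of 1440 were higher (2.92%) and 45 lower (3.13%). The same counts chose the members, so these shares are a description. DESeq2 called 76 higher (4.76%) and 80 lower (5.01%), against 2.23% and 5.78% of all transcripts. With size factors from the ERCC spike-ins edgeR called 16 higher (1.00%) and 249 lower (15.6%), against 0.441% and 18.8% of all, and the median log2 change of all transcripts moved from 0.02 to −0.69. The balance of higher and lower levels thus depends on the scaling. Shares are taken within an oocyte, and RLE scaling gave 30 calls by share in place of 31 (84 higher and 59 lower of all 15586 transcripts). Without GV_A oocyte 5 the level was called for 66 members in place of 105 (230 higher and 683 lower of all 23505 transcripts).

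At the level of genes, 15 of 1432 hosts were higher at MII and 64 lower by edgeR, against 2.15% and 6.32% of all 12929 genes. On HTSeq counts 3 of 1356 hosts were higher and 55 lower, against 0.753% and 5.04% of all 13409 genes. In batch B it was 1 of 1414 hosts higher at MI and 0 lower, against 0.121% of all 12419 genes. The host was B130034C11Rik (log2 1.74, SE 0.38, edgeR adjusted p 0.0499), where the member B130034C11Rik-202 held a median of 100% of the counts in GV_B and MI_B. On HTSeq counts edgeR called 0 of 1340 hosts in batch B, against 0% of all 12441 genes, with 131 hosts at an unadjusted p under 0.05 (7.45% of all genes). The host gene was called in the same direction as its member for 5 of the 48 members with a higher level and 23 of the 57 with a lower one.

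In batch B no member was called between GV and MI by edgeR. By level it was 0 of 1316 members, against 0% of all transcripts, with 212 members at an unadjusted p under 0.05 (16.1%, against 7.11% of all). DESeq2 called 24 members higher (1.82%) and 1 lower (0.076%) by level, against 0.427% and 0.0264% of all transcripts. The members were chosen for their counts, and transcripts of like abundance were not drawn for comparison. By share edgeR called 0 of 1203 members, against 0.0242% of all transcripts, with 53 members at an unadjusted p under 0.05 (4.41%, against 2.15% of all), and limma 0 of 1285, against 0.0217%, with 126 (9.81%, against 8.38%). The fit without MI_B oocytes 4, 8 and 9 was added once the data had been seen. There edgeR called 0 of 1249 by level, with 213 at an unadjusted p under 0.05 (17.1%, against 6.98% of all), and 0 of 1135 by share, with 55 (4.85%, against 2.22%). The median log2 change over the members tested was 0.09 by level (0.02 over all transcripts) and 0.04 by share (0.00 over all).

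The members with the smallest p in batch B are given by their values, since none was called. Cd9-203, of the tetraspanin on the egg surface that sperm fusion needs, had a share of 3.22%, 8.74% and 13.4% in GV_B and 3.88%, 21.6% and 40.2% in MI_B. The stages overlapped (log2 1.35, SE 0.36, edgeR adjusted p 0.393). Terf1-204, of a telomere-binding protein, had 2.42%, 4.87% and 9.82% in GV_B and 0.959%, 10.3% and 23.9% in MI_B, with the lowest value in MI_B oocyte 9, 1 of the oocytes that stand apart. It had a log2 change of 1.299 (SE 0.27, edgeR adjusted p 0.393).

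Stx5a-209, of a SNARE protein of the Golgi, is 1 exon that keeps 7 introns. Its share was 4.73%, 6.75% and 16.5% in GV_B and 2.97%, 19.6% and 38.6% in MI_B (log2 1.36, SE 0.41, edgeR adjusted p 0.695). For all 3 of these members the highest MI_B oocytes were well above every GV_B oocyte and the lowest was MI_B oocyte 9 for each, below or among the GV_B values. In batch A the same 3 shares had log2 changes of 1.16, 0.57 and −0.09 and were not called, although Cd9-203 was higher in every MII_A oocyte (6.25% to 9.02%) than in every GV_A oocyte (1.99% to 5.75%).

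Toward lower shares, Lmo7-212, of a protein of actin and cell junctions, had 0.0618%, 2.81% and 15.4% in GV_B and 0%, 1.21% and 8.52% in MI_B, with a limit of 0.165% for the 0 of oocyte 15. The stages overlapped almost fully (log2 −1.32, SE 0.38, edgeR adjusted p 0.463). Shprh-204, of a ubiquitin ligase of DNA repair, has only 29 bases of its own; its share was 2.06%, 18.5% and 40.1% in GV_B and 0%, 5.77% and 24.2% in MI_B, where the 0 values of oocytes 13 and 15 allow up to 0.231% and 2.27% (log2 −1.34, SE 0.49, edgeR adjusted p 1). Ints9-202 had 5.83%, 12.5% and 23.9% in GV_B and 0%, 3.61% and 20.8% in MI_B, with a limit of 2.27% for the 0 of oocyte 15 and an overlap between stages (log2 −1.58, SE 0.52, edgeR adjusted p 1).

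The members called in batch A can be set beside their values in batch B. Of the 20 higher at MII, 16 were tested in batch B and 10 of these had a log2 change above 0, with a median of 0.33 and a range from −0.34 to 1.17. Of the 11 lower at MII, 9 were tested, 4 were above 0, and the median was −0.22 with a range from −1.58 (Ints9-202, the 1 member at an unadjusted p under 0.05) to 0.446. By edgeR neither list had a member called there. The changes compare different stages as well as different batches, and these cannot be told apart.

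That difference, the GV to MII change less the GV to MI change in share, was called by edgeR for 2 members higher and 3 lower of 1580, against 0.593% of all 25300 transcripts. The 5 were Akr1b3-206, Msl3-204, Tmem214-204, E330034G19Rik-201 and Ckap5-208. By limma on the log ratio to coding transcripts, chosen after seeing the data, it was 5 higher and 4 lower of 1625, against 0.231% of all 7360. Both tests called 2, Akr1b3-206 and E330034G19Rik-201.

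For Akr1b3-206 the share had medians of 0.226% in GV_A, 7.23% in MII_A, 0.503% in GV_B and 0.13% in MI_B. Every MII_A oocyte, from 6.76%, was above every oocyte of the other groups, where the highest was 1.62%. The difference of changes was log2 5.46 (SE 1.15, adjusted p 0.0118) by edgeR and 6.04 (SE 1.02, adjusted p 0.00141) by limma. For E330034G19Rik-201 the medians were 1.69%, 0.249%, 1.22% and 0.995% in the same order, with MII_A alone low. Here the difference was −2.59 (SE 0.38, adjusted p 0.0409) by edgeR and −2.56 (SE 0.41, adjusted p 0.000858) by limma.

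The other members called by limma alone were Dock5-203, Eef1g-205, Emg1-206, Psmb6-202, Rpgrip1-218, Igf2bp2-207 and Sugt1-205. Eef1g-205 reached 10 counts in 1 GV_A and 5 MII_A oocytes, and Dock5-203 in 6 GV_A and 1 MII_A oocyte. The choice thus already favoured the direction of both in batch A. Dock5-203 was at 0 in all 15 MI_B oocytes and in 9 of 10 GV_B oocytes, so there is little in batch B to set against the fall in batch A. Its difference was −6.86 (adjusted p 0.00335) by limma and −0.18 (adjusted p 1) by edgeR. Igf2bp2-207 had median shares of 28.6% in GV_B and 36.3% in MI_B, with a difference of −3.37 (adjusted p 0.0366) by limma and −2.07 (adjusted p 0.181) by edgeR. For the other 8 named members of the batch A test neither tool called the difference.

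GV oocytes of the different batches can be set side by side, since both are the same stage. Of 1580 members, 120 (7.59%) had shares that did not overlap between GV_A and GV_B, 57 higher and 63 lower in GV_B, against 4.97% of all 25300 transcripts. Of the 31 members called by share in batch A, 2 were among them, Cdt1-205 and Dennd4a-208. Uchl1-202 was another, at 16.1% to 36.6% in GV_A and 50.2% to 70.9% in GV_B. Batch A against batch B was given no test.

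Genes of splicing and RNA surveillance were followed as a list of 89 genes in 8 groups. At the gene level 85 were tested in batch A by edgeR, where 0 were higher and 6 lower at MII (39 at an unadjusted p under 0.05, as were 34.3% of all genes), beside 2.15% and 6.32% of all genes, so by calls the list as a whole is near the genes at large. The minor spliceosome group, picked out after its values were seen, had 3 of 8 genes lower at MII, 6 at an unadjusted p under 0.05 and a median log2 of −0.69; on HTSeq counts 2 of 9 were lower, with a median of −0.37. In batch B edgeR called 0 of 85, with 11 at an unadjusted p under 0.05 (11.0% of all genes), and 0 of 86 on HTSeq counts. The lower genes were Snrpc (log2 −1.64) of the U1 particle, Sf3b6 (−1.32) of the U2 particle, Snrnp25 (−1.01), Zmat5 (−1.41) and Scnm1 (−1.46) of the minor spliceosome, and Exosc1 (−1.09) of the exosome. On HTSeq counts 5 of them were lower in batch A. Of the 12 SR proteins and 10 nonsense-mediated decay factors tested in batch A, edgeR called 0, with 5 and 3 at an unadjusted p under 0.05 and median changes of log2 0.21 and 0.23.

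These lists hold 19 members in 13 hosts, and the groups of SR proteins, minor spliceosome and nonsense-mediated decay hold 0. The median shares of the 19 in batch A ran from 1.28% to 38.7%. Srpk1-212, of a kinase of SR proteins, keeps 1 intron and had a share of 31.4%, 41.0% and 45.0% in GV_A and 24.2%, 27.3% and 33.7% in MII_A. The ends of the ranges overlapped, the share was not called, and the level was lower at MII (log2 −1.19, SE 0.26, edgeR adjusted p 0.0117). The gene had a log2 change of −0.59 on RSEM counts and 0.38 on HTSeq counts, called in neither, so its direction depends on the counting method.

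Srpk1-206, a short member of the same gene with 31 bases of its own, was the only member of the lists called by share with edgeR; limma also called it, with Srpk1-203 (log2 1.72, adjusted p 0.00237) and Clk1-212 (log2 1.97, adjusted p 0.00952), both higher at MII without overlap of the stages. Srpk1-206 had 0 counts in 5 of 6 GV_A oocytes, which allows a share of up to 0.0248% to 0.0442%, and 3.31% in GV_A oocyte 2, and 0.365%, 3.37% and 4.85% in MII_A (log2 3.25, SE 0.83, edgeR adjusted p 0.0331). Srpk1-206 reached 10 counts in 1 GV_A and 6 MII_A oocytes, so its choice already favoured a rise. GV_A oocyte 2 lay within the MII_A values, and Srpk1-206 was not called in 9 of the 12 fits that leave out 1 oocyte, with a log2 change of 2.83 in the lowest of these. Zcchc8-207, of a protein that brings RNA to the nuclear exosome, had 17.02%, 43.3% and 47.3% in GV_A and 30.9%, 38.1% and 39.9% in MII_A, with full overlap. In batch B it had medians of 8.18% in GV_B and 7.61% in MI_B.

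Cdk20, a cyclin-dependent kinase, has 3 transcripts of the type, of which Cdk20-202 is a member. It keeps introns 1 and 6 of 7, at chr13:64432671-64432976 and chr13:64437513-64437876 on the plus strand. Its share was 8.45%, 21.4% and 31.3% in GV_A and 52.6%, 56.7% and 69.9% in MII_A. The stages did not overlap, but the share was not called (log2 1.57, SE 0.45, edgeR adjusted p 0.0779), while the level was higher by TMM scaling (log2 1.38, SE 0.25, edgeR adjusted p 0.00494) and not by spike-ins (log2 0.66). In batch B the share was 64.9% to 83.6% in GV_B and 56.6% to 96.2% in MI_B, above every GV_A oocyte.

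The ends of its introns are shown with the same capitals, since they are the only whole introns kept by Cdk20 members.
Cdk20 intron 1 donor: gagGTgaga
Cdk20 intron 1 acceptor: cggcactctttcctgcacAGact
Cdk20 intron 6 donor: ccgGTtagt
Cdk20 intron 6 acceptor: tttttctcctctgggctcAGgag
The other transcripts of the gene with this type did not reach the threshold. Cdk20-206 also covers intron 1 and had at most 3.47 counts in a batch A oocyte, and Cdk20-208 had at most 1.59.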

How the data were processed

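The authors trimmed reads with Trim Galore 0.6.4, aligned them with STAR 2.7.6a to mm10 (GRCm38) and deposited gene counts made with HTSeq 0.12.4. The deposited expected counts of genes and transcripts were made by the authors with RSEM 1.3.1, which shares reads between transcripts, so members with few bases of their own are the most uncertain. The stated annotation is GENCODE M20. Transcript types and sequences were taken from GENCODE M21, where 138789 of 138835 transcripts were found and 46 were not.

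The members and gene lists were chosen with earlier results of these data known. Expected counts were rounded for the tests, and the 92 spike-ins were left out of the tests and used only for scaling. Low counts were filtered with filterByExpr. Level and share (diffSpliceDGE) were tested with edgeR 4.0.16, the log ratio of a member to the coding transcripts with limma 3.58.1, and level also with DESeq2 1.42.0, in R 4.3.3. Python 3.11.15 with pandas 2.3.3 and numpy 2.4.6 made the summaries. A call had an adjusted p under 0.05 by Benjamini and Hochberg and a fold over 2. The planned edgeR test of the difference of changes made more false than true calls on simulated counts, so limma, chosen after seeing the data, is given beside it. On such counts the edgeR test of share and DESeq2 also made more false calls than their threshold allows, and limma did not.

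Members were named by rule: the 6 higher and 6 lower with the smallest adjusted p by share in batch A among those called without overlap of the stages; the 3 higher and 3 lower with the smallest p in batch B; the 5 with the largest share among hosts with a median of 100 or more counts, of which 1 is not reported here; the 5 with the highest level; the 3 most abundant members of the gene lists; transcripts of Cdk20; and the 3 on each side of the threshold. Other names were chosen after their values were seen. Strandedness was not stated, so reads of a gene and its antisense cannot be told apart. Limits for 0 counts cover counting error only.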

Additional observations from a re-analysis of the deposited data

Results flagged for a closer look

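Single oocytes were compared with the rest of their group by Dixon's test, which marks about 1 in 20 groups by chance; 14 of 90 groups were marked. The cause was not tested for any of them.

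Summed over members, the share of host counts was 16.8% in GV_A oocyte 1. The share of Akr1b3-206 was 0.678% in GV_A oocyte 1 and 9.68% in MII_A oocyte 5. That of E330034G19Rik-201 was 2.34% in GV_A oocyte 5 and 2.77% in GV_B oocyte 7. Igf2bp2-207 had 33.9% in GV_A oocyte 2, and Dnmt1-204 had 5.38% in the same oocyte and 9.4% in GV_B oocyte 7. Arhgef15-202 had 99.2% in GV_A oocyte 3 and 99.6% in GV_B oocyte 5. Trpm2-207 had a value that rounds to 100% in GV_A oocyte 6.

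The summed cumulus and granulosa markers reached 33.5 CPM in MII_A oocyte 2. Dock5-203 had 1.67% in MII_A oocyte 3 and 8.24% in GV_B oocyte 4, the only oocytes of their groups above 0.

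By limma, the GV to MII change less the GV to MI change in the log2 ratio to coding transcripts was 6.04 for Akr1b3-206, −2.56 for E330034G19Rik-201, −3.37 for Igf2bp2-207 and −6.86 for Dock5-203. Batch and stage cannot be told apart in these differences.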

How the results depend on the processing

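The share changes of the 12 members described for batch A kept their direction by limma and without any 1 oocyte. These members were named for a small adjusted p on the same counts and for stages without overlap. The kept direction therefore follows from how they were named and is not support. For Ints9-202, Dock5-203 and Dennd4a-208 the choice of members also favoured it. Levels depend on scaling: the median log2 change of the members was 0.0452 with TMM and −0.677 with spike-ins, and that of Ncl-202 was 0.24 and −0.50, that of Naa30-204 0.42 and −0.35. The level of 105 of 1598 members was called in batch A (303 higher and 949 lower of all 22461 transcripts). It was 156 with DESeq2 (501 and 1298 of all 22461) and 265 with spike-in scaling (99 and 4222 of all 22461). With the replicate block it was 41 (171 and 361 of all 22461). With no filter on low counts it was 68 of 1664 (423 and 837 of all 92765). When 1 oocyte was left out it was 66 to 102. The lowest, 66, was without GV_A oocyte 5 (230 and 683 of all 23505). Without GV_A oocyte 4 it was 49 higher and 37 lower, in place of 48 and 57 (285 and 727 of all 23614). In batch B 0 were called by level (0 of all 22717), and 25 by DESeq2 (97 and 6 of all 22717).

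By share, 31 of 1474 members were called in batch A (86 higher and 60 lower of all 15586 transcripts). Limma gave 64 of 1561 (61 and 60 of all 3951), and the replicate block 21 of 1474 (64 and 39 of all 15586). Leaving out 1 oocyte gave 22 to 35. The 22 were without GV_A oocyte 5 (67 and 38 of all 16583), and the 35 without GV_A oocyte 2 (113 and 81 of all 16329). In batch B 0 of 1203 were called by share (3 higher and 1 lower of all 16502 transcripts). With no filter it was 1 of 1643 (188 and 121 of all 69745). It was 0 to 1 when 1 oocyte was left out, the 1 without GV_B oocyte 10 (9 and 1 of all 17003). The difference of changes was called for 5 members by edgeR and 9 by limma.

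Replicate numbers do not pair oocytes: same-number correlations ran from −0.185 to 0.129 in batch A and from −0.0978 to 0.0826 in batch B.

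The median summed share depends on the measure. With length-scaled counts it was 18.8% in GV_A, 18.3% in MII_A, 22.1% in GV_B and 22.8% in MI_B, in place of 14.2%, 13.7%, 15.8% and 16.3%. The median of the members' own shares was 10.1%, 10.9%, 9.47% and 9.37%. By construction, sums weight abundant hosts. For the other changes the cause was not tested. Of the values recomputed for the headline results, 17 moved and 91 did not. Of the other recomputed values, 42 moved and 185 did not. MI_B oocyte 15, the shallowest, had 10 counts for 441 members; the part of depth was not tested.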
